A study of Mus musculus with 2 samples.

Results

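The cells described here are cardiac macrophages that carried much MHC class II mRNA and no detected Ccr2, Timd4 or Spp1 transcript. They were chosen from single-cell RNA counts. A cell was gated as a macrophage when at least 3 of the 6 genes C1qa, C1qb, C1qc, Fcgr1, Csf1r and Adgre1 had a unique molecular identifier (UMI, the tag that marks 1 captured transcript) and when Dcn, Col1a1, Col1a2 and Col3a1 together made up under 0.3% of its UMIs. A gated macrophage was a member when Ccr2, Timd4 and Spp1 were all at 0 and when H2-Aa, H2-Ab1, H2-Eb1 and Cd74 together made up at least 0.2% of its UMIs. This gave 674 members among 2243 gated macrophages and 15964 cells kept in all. The members are compared with the 472 gated macrophages below 0.2%, called low class II macrophages here, whatever their Ccr2, Timd4 or Spp1.

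MHC class II molecules are pairs of an alpha and a beta chain that show peptides from engulfed material to CD4 T cells. The invariant chain, encoded by Cd74, guides the new pair to the endosome, where cathepsins trim it and H2-DM exchanges the remaining piece for peptide. Transcription of the class II chains, Cd74 and the H2-DM chains depends on the coactivator CIITA, which docks on factors bound at their promoters. In the mouse heart, macrophages are known to fall into a resident population marked by Timd4, Lyve1 and Folr2, a class II population with low Timd4 and low Ccr2, and a population fed by monocytes that carries Ccr2. CX3CR1, the fractalkine receptor, is a usual marker of the class II population.

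The groups compared were 2, each with 1 library: the non-cardiomyocyte fraction of hearts taken on day 20 from male C57BL6/J wild-type mice that had sham surgery, and the same fraction after transverse aortic constriction (TAC), which narrows the aorta and raises the pressure load on the left ventricle. Hearts were digested by enzymes and DAPI-negative cells were sorted, so the cells are those that survived that handling; how many hearts went into a library is not given in the sources used here. With 1 library per group there is no replicate check and no test was made: each ratio compares 2 libraries, and every interval is a 95% interval that covers counting error only. Levels are UMI counts per 1000000 (CPM) of the UMIs summed over the cells of a group in a library, and log2 ratios are of CPM + 1.

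The TAC library was the deeper one, with 96003109 UMIs over 8000 kept cells against 42490230 UMIs over 7964 kept sham cells. Sham members held a median of 3811 UMIs and 1538 genes, and TAC members 8198 UMIs and 2612 genes. Mitochondrial transcripts made up 5.12% of the sham members' UMIs and 6.07% of the TAC members'. The libraries shared 15 cell barcodes, none of them of a member. Scrublet called 0.879% of sham and 1.83% of TAC cells as doublets, which were kept.

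The 4 class II genes of the rule set the members apart by construction, and their levels are given as a description. They made up a median of 4.00% of a sham member's UMIs, with quartiles of 2.07% and 6.11%, and 2.52% of a TAC member's, with quartiles of 1.31% and 4.99%. Low class II macrophages had medians of 0.0211% in sham and 0.0222% in TAC. Few cells lay near the threshold. With the 3 excluded genes at 0, 5 sham and 9 TAC macrophages fell between 0.15% and 0.2%, and 7 sham and 7 TAC members between 0.2% and 0.25%. H2-Aa, the alpha chain of I-A, stood at 8774 CPM in sham and 4981 CPM in TAC members. Its partner H2-Ab1 stood at 5079.9 CPM in sham and 3056 CPM in TAC members. H2-Eb1, the beta chain of I-E, stood at 7153 CPM in sham and 4307 CPM in TAC members. These 3 chains were lower in the TAC members, at log2 ratios of -0.82, -0.73 and -0.73. The invariant chain gene Cd74 differed less, at 17608 CPM in sham and 16576 CPM in TAC members, a log2 ratio of -0.09.

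**Figure D1:**
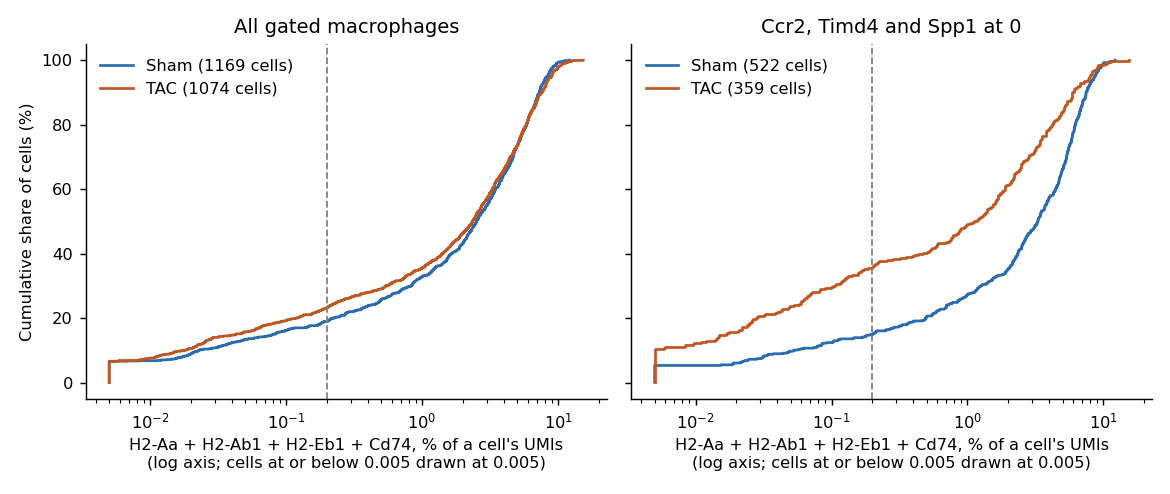
Cumulative share of gated macrophages (y axis, percent) by the percent of a cell's UMIs from H2-Aa, H2-Ab1, H2-Eb1 and Cd74 (x axis, log scale), for all gated macrophages (left) and for those with Ccr2, Timd4 and Spp1 at 0 (right). The dashed line is the 0.2% threshold. Over all gated macrophages 81.0% of sham and 76.7% of TAC cells lie at or above it, and on the right the TAC curve runs higher and further left than the sham curve.

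Sham held 444 members, 37.98% of its 1169 gated macrophages (35.2 to 40.8), and TAC held 230, 21.4% of 1074 (18.996 to 23.99). The ratio of the shares was 0.564 (0.479 to 0.663). As shares of all kept cells the members made up 5.58% and 2.875%, while gated macrophages made up 14.7% and 13.4%. The difference was smaller without the 3 excluded genes and at equal depth. Without the requirement on Ccr2, Timd4 and Spp1 the class II shares were 81.0% and 76.7%, a ratio of 0.947 (0.862 to 1.04). Among those class II cells, Ccr2, the receptor that brings monocytes into tissue, was detected in 29.4% of sham and 60.8% of TAC cells. Spp1, the secreted protein osteopontin, was detected in 4.01% and 28.8%. Timd4, a receptor for dying cells on resident macrophages, went the other way, at 32.9% and 12.5%. A gene is more often seen above 0 in a deeper cell. Cells were therefore also thinned to 3200 UMIs and gated anew, with cells under 3200 UMIs left out. The member shares were then 40.9% and 33.5%, a ratio of 0.818. This left 948 gated macrophages in sham and 1013 in TAC, so more cells were lost in sham.

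The members carried macrophage genes that the gate did not use. Lyz2, the macrophage lysozyme, stood at 12912 CPM in sham and 14048 CPM in TAC members. The mannose receptor gene Mrc1 was seen in 89.4% and 91.7% of them, and the apoptotic-cell receptor gene Mertk in 17.6% and 41.3%, at unequal depth. Some genes that define dendritic cells were near 0: Flt3 stood at 0 and 1.44 CPM, Xcr1 at 0.528 and 0 CPM and Clec9a at 0 and 0.4795 CPM. The 8 dendritic markers together stood at 40.1 and 21.6 CPM, mostly from Ccr7, whose levels are given below. Low class II macrophages held 12.1 CPM of these markers in sham and 35.3 CPM in TAC. Cx3cr1, the remaining marker expected of these cells, was present in sham members at 169 CPM and close to absent in TAC members at 15.3 CPM. Class II was high in the members by the rule, so it gives no check of the label. Of the genes outside the rule, the macrophage genes above were present in both libraries, and Cx3cr1 clearly in sham only.

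Transcripts of other cell types were measured in the members beside these genes. The 4 neutrophil markers summed to 199 CPM in sham and 3383 CPM in TAC members, the 6 endothelial markers to 77.6 and 1105 CPM, and the 4 haemoglobin genes to 1031 and 3132 CPM. The 7 B cell markers summed to 859 and 661 CPM, of which Ighm gave 541 and 357 CPM. The 5 T and NK markers summed to 76.04 and 88.7 CPM, the 6 fibroblast markers to 606 and 660 CPM, the 5 cardiomyocyte markers to 57.6 and 286 CPM, the 4 mural markers to 9.505 and 14.9 CPM and the 3 mast cell markers to 0.528 and 1.92 CPM. Cells with several UMIs of another lineage, called mixed cells here, were counted as those with at least 2 UMIs over a set of B cell genes, 5 of S100a8, S100a9 and Retnlg, 2 of Pecam1, Cdh5, Kdr, Emcn and Egfl7, or 2 of Cd3e, Cd3d and Trbc2. There were 53 among the sham members (11.9%) and 74 among the TAC members (32.2%), a count that also grows with depth. Of these, 5 sham and 27 TAC members passed on the neutrophil genes, 6 and 32 on the endothelial genes and 35 and 16 on the B cell genes. Values without mixed cells are given below for the genes and lists whose counts or ratios differed most.

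Ciita (ENSMUSG00000022504, chromosome 16, 10480059 to 10528418), the coactivator that class II transcription depends on, was not part of the rule. It stood at 128 CPM (113 to 146) in sham and 45.6 CPM (36.9 to 55.7) in TAC members. The TAC value was lower by 2.82-fold (2.21 to 3.61), a log2 ratio of -1.47, and of -1.30 without mixed cells. Low class II macrophages held 1.73 and 3.03 CPM of it, and cells of the fibroblast gate 3.11 and 1.297 CPM. At equal depth of 2700 UMIs, 27.7% of sham and 12.1% of TAC members had a Ciita UMI, against 0.966% and 0.417% of low class II macrophages. The size of the library difference depended on which cells were members: without the requirement on Ccr2, Timd4 and Spp1 its log2 ratio was -0.56.

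The peptide-loading genes H2-DMa and H2-DMb1 were also lower in TAC members, by less than Ciita. H2-DMa, the alpha chain of H2-DM, stood at 719.7 CPM (682 to 759) in sham and 403 CPM (376 to 431) in TAC members, lower in TAC by 1.79-fold (1.64 to 1.95). H2-DMb1, its beta chain, stood at 446 CPM (417 to 477) in sham and 345 CPM (320.0 to 371) in TAC members, lower by 1.29-fold (1.17 to 1.43). H2-DMb2 is a near copy of H2-DMb1, so reads could be split between them, and it stood at 23.8 and 26.9 CPM. H2-Oa and H2-Ob, the chains of the H2-DM inhibitor known from B cells, stood at 13.2 and 13.9 CPM and at 21.1 and 20.6 CPM. The processing proteases went the other way: Ctss, cathepsin S, stood at 1949.6 and 2511 CPM, 1.29-fold (1.23 to 1.34) higher in TAC. Lgmn, the endopeptidase legumain, had a log2 ratio of 0.47 and Ctsd, cathepsin D, one of 0.76. Of 17 measured genes of the pairing and loading list, meaning those with a mean of at least 10 CPM over the 2 groups, none was at least 2-fold higher in TAC members and 1, Ciita, was at least 2-fold lower. The list's median log2 ratio was 0.23. Over all 7969 measured genes 4.37% were at least 2-fold higher and 1.71% at least 2-fold lower, and the median was 0.01. The factors that bind class II promoters, Rfxap, Rfxank, Nfya, Nfyb and Nfyc, had log2 ratios between -0.17 and 0.40.

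Promoter sequences of the class II genes are shown because these genes are read from promoters with a common set of boxes, of which the Y box binds NF-Y. The letters TGATTGG, searched on both strands in the 250 bases before each gene's start, stand for that box; they hold ATTGG, the reverse complement of the CCAAT box. Cd74 was not searched, and H2-Ab1 and Ciita had no window. Of 18 genes of the rule and of the pairing and loading list with a window, 9 held TGATTGG, against 8.38% of 27025 genes with a window. It began at -50 from the start of H2-Aa, -61 of H2-Eb1, -63 of H2-DMb1, -92 of H2-DMb2, -45 of H2-Oa, -59 of H2-Ob and -102 of H2-Eb2, and the other 2 genes with it were Rfx5 and Nfyc. These letters were not in the windows of H2-DMa or Ctss. A match is a description and not a binding site. The sequences below are from RefSeq on GRCm38.p6, 120 bases up to the base before the start, 5′ to 3′ on the gene's strand, with TGATTGG in capitals: H2-Aa at chr17:34287824-34287943 on the minus strand, and on the plus strand H2-Eb1 at chr17:34305747-34305866, H2-DMb1 at chr17:34153071-34153190 and H2-DMb2 at chr17:34145129-34145248.
H2-Aa: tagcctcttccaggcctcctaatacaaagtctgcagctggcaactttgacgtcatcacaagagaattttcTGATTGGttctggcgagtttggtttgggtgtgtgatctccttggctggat
H2-Eb1: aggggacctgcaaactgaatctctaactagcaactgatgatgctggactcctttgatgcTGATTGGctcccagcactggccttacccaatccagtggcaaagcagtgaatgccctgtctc
H2-DMb1: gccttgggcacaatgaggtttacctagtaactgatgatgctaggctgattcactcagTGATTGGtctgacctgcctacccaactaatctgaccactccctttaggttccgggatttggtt
H2-DMb2: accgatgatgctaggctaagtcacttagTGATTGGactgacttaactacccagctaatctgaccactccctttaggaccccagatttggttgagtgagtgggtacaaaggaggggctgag

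Between libraries, 348 of the 7969 genes measured in members (4.37%) were at least 2-fold higher in TAC and 136 (1.71%) at least 2-fold lower. Without mixed cells 268 genes were at least 2-fold higher and 180 at least 2-fold lower. These all-gene values are the background for the TAC to sham counts of each list below. In low class II macrophages of the same libraries 5.63% of 8086 genes were at least 2-fold higher and 2.42% at least 2-fold lower, so neither share of the members stood above that of their neighbours. Cx3cr1 (ENSMUSG00000052336, chromosome 9, 119901616 to 120069879) had the lowest ratio among the named genes. It stood at 169 CPM (151 to 189) in sham and 15.3 CPM (10.5 to 21.7) in TAC members, lower in TAC by 11.01-fold (7.64 to 16.4). Low class II macrophages held 51.9 and 13.3 CPM, a log2 ratio of -1.89 against -3.38 in members. At 2700 UMIs per cell, which left out 80 sham and 16 TAC members, 29.7% of sham members (25.02 to 34.7) and 2.34% of TAC members (0.763 to 5.37) had a UMI of it. The unthinned shares were 40.3% and 11.7%. The shares in the fibroblast gate, where the gene is not expected, were 0.705% and 0.216% at the same depth, with median depths of 5021 and 12201 UMIs before thinning. Sham members thus stood far above that background and TAC members a little above it, at a share like the 3.33% of TAC low class II macrophages. The log2 ratio was -3.25 without mixed cells and -3.41 when the gate was applied at equal depth.

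Of the 12 genes named as higher in TAC, Ddit4 (ENSMUSG00000020108, chromosome 10, 59949669 to 59951834), an inhibitor of mTOR signalling that stress and glucocorticoids induce, had the largest ratio. It gave 3 UMIs in sham members, 1.58 CPM, and 127 CPM in TAC members, 79.9-fold (27.05 to 390.0) higher. The low class II macrophages (1.73 and 97.1 CPM) and the fibroblast gate (21.1 and 114 CPM) were also higher in TAC. Fkbp5, a chaperone that glucocorticoids induce, stood at 15.3 and 106 CPM in members, 6.95-fold (4.71 to 10.6) higher in TAC. At equal depth Ddit4 had a UMI in 0.549% of sham and 25.7% of TAC members, against 4.78% and 23.5% of the fibroblast gate. Fkbp5 had a UMI in 4.40% and 25.2% of members, against 10.8% and 22.03% of that gate. For both genes the sham share lay below the gate and the TAC intervals overlapped, so these shares are not read as expression. The monocyte attractant Ccl8 stood at 32.2 CPM in 7.88% of sham members and 407 CPM in 24.8% of TAC members at unequal depth, 12.6-fold (9.73 to 16.7) higher, with log2 ratios of 3.62 in members, 2.53 in low class II macrophages and 0.05 in the fibroblast gate. At equal depth 7.14% and 15.4% of members had a UMI of it, against 0.973% and 0.342% of the fibroblast gate, and with the gate applied at equal depth its log2 ratio was 2.84. Lag3, a receptor known from T cells that binds class II, stood at 4.75 and 54.2 CPM, 11.4-fold (5.798 to 25.6) higher. Jdp2, a bZIP repressor of AP-1, was 7.28-fold (5.52 to 9.77) higher, from 11.3% to 72.2% of members with a UMI at unequal depth. Plxnd1, a semaphorin receptor, stood at 23.2 and 162 CPM. C4b, complement component 4B, stood at 48.1 and 284 CPM, but cells of the fibroblast gate held 21.8 and 159 CPM and C4a is a near copy. These 7 genes kept log2 ratios between 2.49 and 5.74 without mixed cells. Without the requirement on the 3 excluded genes Ccl8, Plxnd1 and C4b had smaller log2 ratios of 2.41, 1.67 and 1.62, and Ddit4 one of 4.43.

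The other 5 genes named as higher moved with the mixed cells. S100a8 and S100a9, which form the neutrophil protein calprotectin, stood at 58.6 and 1422 CPM and at 108 and 1787 CPM in sham and TAC members. They were seen in 1.35% and 16.1% and in 1.802% and 16.1% of members, at unequal depth. Their log2 ratios were 4.58 and 4.04, and 2.78 and 0.31 without mixed cells, which those genes help to define. Ifitm1, an interferon-induced membrane protein, had a log2 ratio of 4.11 and of 0.26 without mixed cells. Hdc, histidine decarboxylase, had 3.40 and -0.72. Slpi, a leukocyte protease inhibitor, had 2.93 and -0.80. These 3 genes were not used to find the mixed cells, and each was seen in 10.9% of TAC members; the part of neutrophil RNA in their levels was not tested further. All 12 named genes were also at least 2-fold higher in TAC in low class II macrophages, and 7 of them in the fibroblast gate.

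**Figure D2:**
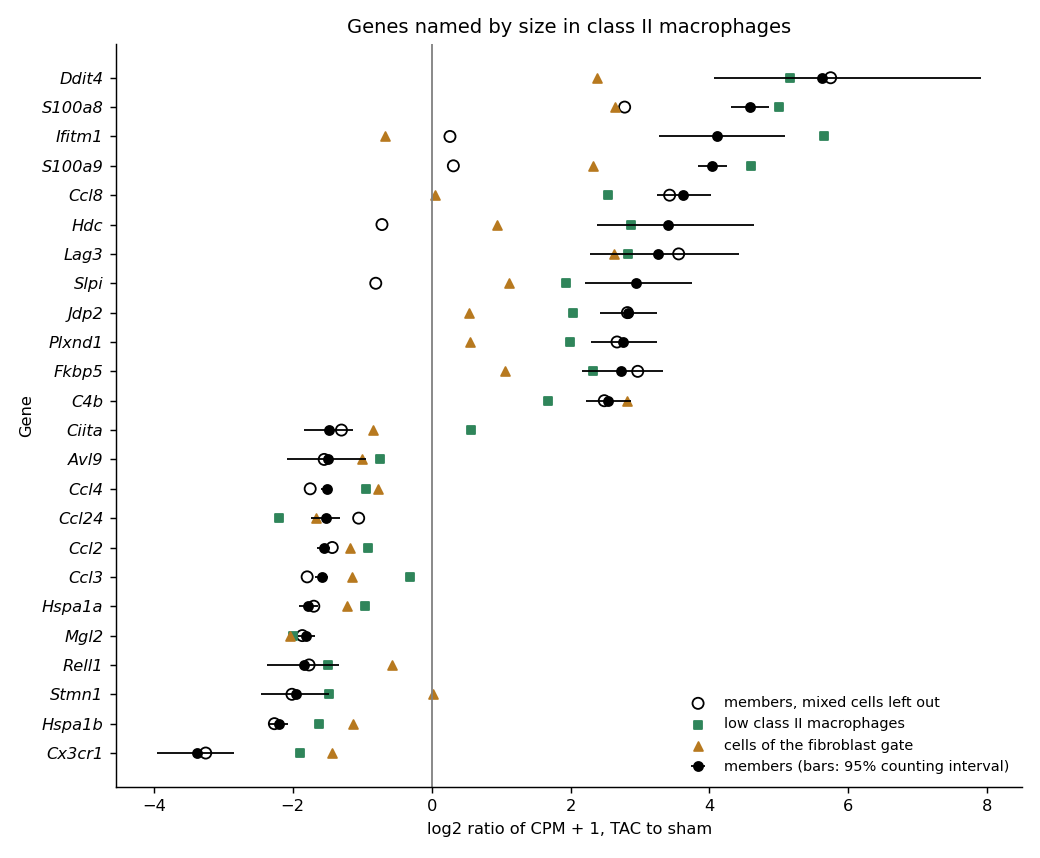
Log2 ratio of CPM + 1, TAC to sham (x axis), for the 12 genes with the largest ratios in each direction in members (y axis). Filled circles are members with 95% counting intervals, open circles members without mixed cells, squares low class II macrophages and triangles the fibroblast gate. S100a9, Ifitm1, Hdc and Slpi lie between -0.80 and 0.31 without mixed cells, Cx3cr1 lies lowest in members at -3.38, and Ciita lies at -1.47 in members; its low class II square rests on few UMIs (1.73 CPM in sham and 3.03 CPM in TAC) and gives no direction.

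Genes named as lower in TAC members included, after Cx3cr1, the inducible heat shock genes Hspa1b, at 1143 and 247 CPM, and Hspa1a, at 955 and 278 CPM, near copies whose reads could be split. Of 15 measured heat shock genes 6 were at least 2-fold lower, 1 (Cryab, 2.33) at least 2-fold higher, and the median log2 ratio was -0.86. Over all measured genes 1.71% were at least 2-fold lower and 4.37% at least 2-fold higher. Without mixed cells 4 were at least 2-fold lower, with a median of -0.75. Mgl2, a galactose-binding lectin of class II macrophages and some dendritic cells, stood at 1176 CPM in 88.5% of sham members and 336 CPM in 62.6% of TAC members, lower by 3.503-fold (3.22 to 3.82). At equal depth 82.97% and 41.1% of members had a UMI of it, against 2.33% and 0.4496% in the fibroblast gate. The Mgl2 share was also lower in TAC in low class II macrophages, at 72.5% and 30.4%. Stmn1, a regulator of microtubules in dividing cells, stood at 90.3 and 22.5 CPM, with a log2 ratio of -1.96 that was -0.61 without the requirement on the 3 excluded genes. Rell1, a relative of the TNF receptor RELT, stood at 74.5 and 20.1 CPM and Avl9 at 53.3 and 18.2 CPM. Of the 12 genes named as lower, 6 were at least 2-fold lower in low class II macrophages and 8 in the fibroblast gate.

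Chemokines held 4 of the 12 places. Ccl3 and Ccl4, inflammatory chemokines that attract leukocytes, stood at 1719.9 and 574 CPM and at 2213 and 775 CPM in sham and TAC members, lower in TAC by 2.999-fold (2.81 to 3.21) and 2.86-fold (2.695 to 3.03). Without the requirement on the 3 excluded genes the log2 ratio of Ccl4 was -0.92, against -1.51. Ccl2, the main ligand of CCR2, stood at 1657 and 563 CPM, lower by 2.94-fold (2.75 to 3.15). Ccl24, an eosinophil attractant, stood at 360.1 and 125 CPM, with a log2 ratio of -1.52 and of -1.05 without mixed cells. Ccl3 was detected in 49.3% of sham and 46.1% of TAC members, at unequal depth. Cxcl1 and Cxcl2, which attract neutrophils, had log2 ratios of -1.91 and -1.17. Of 17 measured chemokine genes 6 were at least 2-fold lower in TAC members and 2, Ccl8 and Cxcl12, at least 2-fold higher, and Ccl12, a CCR2 ligand, lay at the 2-fold line (465 and 930.3 CPM). The median was -0.59, and -0.39 in low class II macrophages. Without mixed cells 4 of 17 were at least 2-fold higher and 6 at least 2-fold lower, and the median was -0.27. Cxcl12, a product of fibroblasts, stood at 6.34 and 20.6 CPM and had a log2 ratio of -1.47 without mixed cells.

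Some genes of the LYVE1 resident macrophage were lower in TAC members, while Timd4 was at 0 in every member by the rule. Of 20 measured genes of this list 6 were at least 2-fold lower and none at least 2-fold higher, and the median log2 ratio was -0.63, against -0.94 in low class II macrophages. Over all measured genes 1.71% were at least 2-fold lower in TAC members. Folr2, the folate receptor beta, stood at 503 CPM (472 to 536) in sham and 220.1 CPM (200.4 to 241) in TAC members, lower by 2.29-fold (2.04 to 2.56). Lyve1, a hyaluronan receptor, stood at 258 CPM (236 to 282) in sham and 135 CPM (119 to 151) in TAC members, lower by 1.92-fold (1.65 to 2.23), a log2 ratio of -0.93 and of -1.71 without mixed cells. Ednrb, an endothelin receptor, stood at 40.1 and 8.15 CPM, and Clec10a, a lectin related to Mgl2, at 118 and 51.8 CPM. Other genes of the list differed little: Cd163, a haemoglobin scavenger receptor, had a log2 ratio of -0.05, the growth factor Igf1 -0.01 and the TAM receptor ligand Gas6 -0.03. Stab1, a scavenger receptor, was the highest, at 0.50.

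Core macrophage genes were near the median of all genes. Of 25 measured genes of that list 2 were at least 2-fold higher, Tmem119 (1.71) and Olfml3 (1.59), and 2 at least 2-fold lower, Cx3cr1 and Siglech (-1.13). The median was 0.17. Tmem119 is known as a microglia marker. A UMI of it was found in 4.12% of sham and 16.4% of TAC members at equal depth, below the 9.24% and 21.8% of the fibroblast gate, so that these shares are not read as expression. Trem2, a lipid-sensing receptor, stood at 228 and 336 CPM, 1.47-fold (1.303 to 1.66) higher in TAC. Of 16 measured genes of the monocyte-derived list 3 were at least 2-fold higher, with a median of 0.58: S100a6 (1.15, and 0.14 without mixed cells), the haemoglobin-binding Hp (8.45 and 52.3 CPM) and Fn1, fibronectin, which stood at 0.528 and 109 CPM but was seen in only 5.22% of TAC members. Plac8, a marker of Ly6c monocytes, was the 1 gene at least 2-fold lower, at 16.9 and 6.71 CPM, while low class II macrophages held 1.73 and 147 CPM. The low class II group could hold Ccr2 cells, which the rule removed from the members.

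Of 19 measured targets of glucocorticoids and stress none was at least 2-fold lower in TAC members, and the median was 0.53. At least 2-fold higher were 7 of them, against 4.37% of all measured genes. Beside Ddit4 and Fkbp5, these were Klf9 (17.95 and 104 CPM), Per1 (28.5 and 104 CPM), Tsc22d3 or GILZ (349.6 and 1156 CPM), the kinase gene Sgk1 (52.3 and 121 CPM) and the decoy receptor gene Il1r2. Il1r2 had a log2 ratio of 2.66 and of -2.28 without mixed cells, where 5 of 17 genes of the list were at least 2-fold higher and the median was 0.19. Klf9 was seen in 52.9% and 59.7% of the fibroblast gate at equal depth, more than the 3.85% and 23.4% of members. In low class II macrophages the list's median was 1.03.

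The interferon response list held a few high genes and a median near that of all genes. Of 28 measured genes 4 were at least 2-fold higher in TAC members: the ubiquitin-like Isg15 (27.99 and 131 CPM), the regulator Irf7 (33.3 and 125 CPM), Ifi27l2a (653 and 1886 CPM) and Oasl2 (39.1 and 85.8 CPM). None was at least 2-fold lower. The median was 0.06 in members and 0.91 in low class II macrophages. Rsad2, an antiviral enzyme, had a log2 ratio of -0.01 in members and 2.30 in low class II macrophages. The chemokine gene Cxcl10 had -0.71 and 1.91. Whether these differences between groups exceed those between replicate libraries was not tested. Low class II macrophages could hold Ccr2, Timd4 and Spp1 cells and members could not. Only 78 of 222 low class II macrophages in sham and 129 of 250 in TAC had the 3 genes at 0. Ratios for those cells alone are not given here, and the part of the rule in these contrasts was not tested.

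Inflammatory genes lay near the median of all genes and immediate early genes below it. The cytokine gene Il1b stood at 640 CPM (604 to 677) in sham and 525 CPM (494 to 557) in TAC members, and Tnf at 225 and 137 CPM. In low class II macrophages Il1b stood at 98.7 and 347 CPM. Nfkbia, the inhibitor that NF-kappaB induces, had a log2 ratio of -0.67 in members. Of 19 measured genes of the inflammatory list 4 were at least 2-fold higher, Ptgs2, Clec4e, Clec4d and Osm, none was at least 2-fold lower, and the median was 0.15. Without mixed cells 0 of 17 were at least 2-fold higher and 1 at least 2-fold lower, and the median was -0.28. Of 19 immediate early genes none was at least 2-fold higher and 2, Atf3 (-1.37) and Egr3 (-1.54), at least 2-fold lower, with a median of -0.47.

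Antigen handling beyond class II differed little. None of 15 measured MHC class I and processing genes and none of 25 lysosome genes passed 2-fold in either direction, with medians of 0.00 and 0.30. Of 13 costimulation genes 1, Havcr2 or TIM-3 (1.10), was at least 2-fold higher and 1, Slamf7 (-1.15, and -0.90 without mixed cells), at least 2-fold lower. Cd86, the CD28 ligand, stood at 427 and 347 CPM, and Cd83, which marks activated antigen-presenting cells, at 459 and 374 CPM. Of 21 phagocytosis and complement genes 1, C4b, was at least 2-fold higher and none at least 2-fold lower, with a median of 0.30.

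Energy metabolism genes lay slightly above and cell cycle genes below the median of all genes. Of 23 oxidative phosphorylation genes 1, Uqcr11, was at least 2-fold higher, with a median of 0.32, and of 18 glycolysis and hypoxia genes 1, Gapdh (117 and 333 CPM), with a median of 0.30. Neither list held a gene at least 2-fold lower, and without mixed cells 3 oxidative phosphorylation genes were at least 2-fold higher. Of 12 measured cell cycle genes 4 were at least 2-fold lower and none at least 2-fold higher, with a median of -0.59: Top2a (19.5 and 5.27 CPM), Stmn1, Cenpa and Tyms. The share of all measured genes at least 2-fold lower was 1.71%. Of 14 iron and haem genes 3 were at least 2-fold lower, among them the iron exporter gene Slc40a1 (72.3 and 28.8 CPM), and 1, Lcn2, at least 2-fold higher (3.90, and 0.88 without mixed cells). Without mixed cells 0 of 13 were at least 2-fold higher and 1 at least 2-fold lower. Of 22 lipid and scar associated genes 2 were at least 2-fold higher, the fatty acid carriers Fabp4 (4.43) and Fabp5 (1.18), and 1, the lipase gene Lpl (203 and 99.3 CPM), at least 2-fold lower. Fabp4 is also an endothelial gene, and without mixed cells the 2 carriers had log2 ratios of 2.05 and -0.03. The Fabp4 level in TAC members was under 20% of its level in cells outside the macrophage gate. At equal depth 3.30% of sham and 21.0% of TAC members had a Fabp4 UMI, against 3.27% and 12.8% of the fibroblast gate.

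Of 22 adhesion and migration receptor genes 5 were at least 2-fold higher and 2, Cx3cr1 and Ccr7 (29.6 and 11.5 CPM), at least 2-fold lower. Beside Plxnd1, the higher genes were Sema4d, a semaphorin (14.8 and 48.4 CPM), the chemokine receptor genes Ccr1 (43.8 and 142 CPM) and Cxcr4 (44.9 and 105 CPM) and the laminin receptor gene Itga6 (29.04 and 93.99 CPM). Of 27 macrophage transcription factor genes 4 were at least 2-fold higher and 2 at least 2-fold lower, with a median of -0.09. Runx3 stood at 77.6 and 281 CPM and Cebpa, needed for myeloid cells, at 91.4 and 193 CPM, while Irf8, which promotes dendritic cell and monocyte fates, had a log2 ratio of -0.35. Of 16 growth factor and matrix genes 4 were at least 2-fold higher and 2 at least 2-fold lower, the latter Bmp2 (38.02 and 3.84 CPM) and Gdf15 (60.7 and 22.5 CPM). Without mixed cells 2 of 15 were at least 2-fold higher and 2 at least 2-fold lower, and Areg and Osm were below 2-fold, at 0.85 and 0.61.

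**Figure D3:**
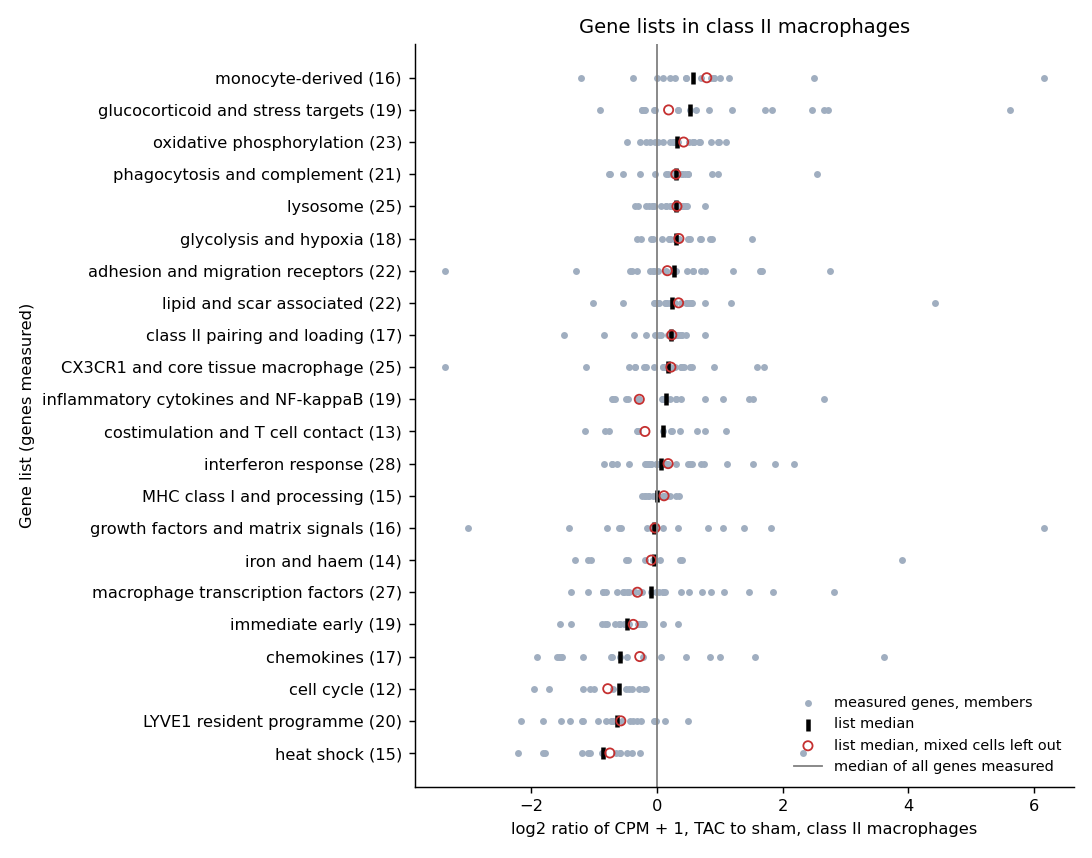
Log2 ratio of CPM + 1, TAC to sham, in members (x axis) for the measured genes of 22 lists (y axis, number of genes in brackets). Grey points are genes, black ticks list medians, open circles list medians without mixed cells and the grey line the median of all measured genes (0.01). Heat shock, LYVE1 resident, cell cycle and chemokine lists have the lowest medians (-0.86 to -0.59) and the monocyte-derived and glucocorticoid lists the highest (0.58 and 0.53); without mixed cells the chemokine median is -0.27 and the glucocorticoid median 0.19.

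Members and low class II macrophages were then compared within each library. The rule chose the 2 groups by their class II share, so these ratios are a description. In sham 2.3% of 7824 genes were at least 2-fold higher in members and 3.22% at least 2-fold lower. In TAC the shares of 8193 genes were 0.976% and 1.53%. In both libraries 32 of 7501 genes (0.427%) were at least 2-fold higher and 52 (0.693%) at least 2-fold lower. The median log2 ratio over all genes was -0.12 in sham and -0.08 in TAC.

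Genes of the class II machinery were among the highest in members. Ciita was higher in members by 74.1-fold (20.3 to 616) in sham, where low class II macrophages gave 2 UMIs, and by 15.02-fold (7.32 to 35.8) in TAC. H2-DMb1 was higher by 9.21-fold (7.02 to 12.3) and 5.26-fold (4.45 to 6.24), and H2-DMa by 5.54-fold (4.68 to 6.61) and 3.001-fold (2.65 to 3.41). Of 16 genes of the pairing and loading list measured in both libraries, 5 were at least 2-fold higher in both. The protease genes Ctsl, Ctsb and Ctsd were lower in members in both, with log2 ratios from -1.10 to -0.44 in sham and from -0.61 to -0.22 in TAC.

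Other genes named as higher in members belong to several functions. Fcgr4, an activating IgG receptor, stood at 84.5 CPM in sham members against 14.7 CPM in low class II macrophages, and at 166 against 60.7 CPM in TAC. Axl, a TAM receptor for dying cells, stood at 185 against 36.4 CPM in sham and 219.6 against 121 CPM in TAC. Plbd1, a lysosomal phospholipase-like protein, stood at 233 against 45.01 CPM and 149 against 49.3 CPM. At equal depth Axl was seen in 72.7% and 70.3% of the fibroblast gate and in 34.3% and 38.8% of members, so these shares are not read as expression. The collagenase gene Mmp13 had log2 ratios of 2.16 and 1.62. In TAC its ratio was 0.95 without the requirement on the 3 excluded genes and turned to -0.25 when cells with B cell or dendritic UMIs were left out. The corepressor gene Tle1 had 2.25 and 1.12, and 1.31 and 0.51 against low class II macrophages that also had the 3 genes at 0. Ccrl2, a chemerin receptor that does not signal, had 1.28 and 0.95, and 0.28 in sham against those cells. Vcam1 had 2.90 in sham and 0.98 in TAC, and -0.43 in TAC without the requirement on the 3 excluded genes. It too was seen more often in the fibroblast gate, in 51.4% and 40.4% of cells against 14.3% and 34.6% of members. Cd79b, a chain of the B cell receptor, had 3.87 and 2.38, and 2.62 and 0.66 without mixed cells. Members held more UMIs of Cd79a (79.2 and 101 CPM) and Ms4a1 (52.8 and 26.9 CPM) than low class II macrophages, where both stood under 1 CPM. B cells carry class II themselves, and the part of their RNA in the members' class II share was not tested.

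Genes of the LYVE1 list held 6 of the 10 places named as lower. Lyve1 stood at 258 CPM in sham members against 1456 CPM in low class II macrophages, and at 135 against 548 CPM in TAC. Folr2 stood at 503 against 1489 CPM in sham and 220.1 against 618 CPM in TAC. Vsig4, a receptor for complement C3 fragments, had log2 ratios of -3.01 and -3.13, Ednrb -2.26 and -2.81, and Fcna, the soluble lectin ficolin A, -2.18 and -2.02. Ltc4s, which makes leukotriene C4, had -2.17 and -1.40, the scavenger receptor gene Colec12 -1.96 and -2.12, and the guanine deaminase gene Gda -1.86 and -1.20. Emp1, a membrane protein, had -2.89 and -1.60. Of 20 genes of the LYVE1 list 6 were at least 2-fold lower in members in both libraries and none at least 2-fold higher, with medians of -0.9966 in sham and -0.64 in TAC. Low class II macrophages could hold Timd4 and Ccr2 cells and members could not; with members freed of that requirement, Lyve1 had -1.40 in sham, Vsig4 -1.77 and -2.32, and Gda -0.68 and -0.41. Against low class II macrophages that also had the 3 genes at 0, the ratios were smaller: Lyve1 had -1.39 in TAC, Vsig4 -1.43 in TAC, Fcna -1.03 in sham and -1.02 in TAC, and S100a4 -1.03 in TAC. Without mixed cells Lyve1 and Fcna had -3.03 and -3.06 in TAC. S100a4, a calcium-binding protein of monocyte-derived cells, had log2 ratios of -2.61 and -1.97, and 0.095 in TAC once members could hold the 3 excluded genes. The lectin gene Mgl2 was higher in members, at 0.58 and 0.76.

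**Figure D4:**
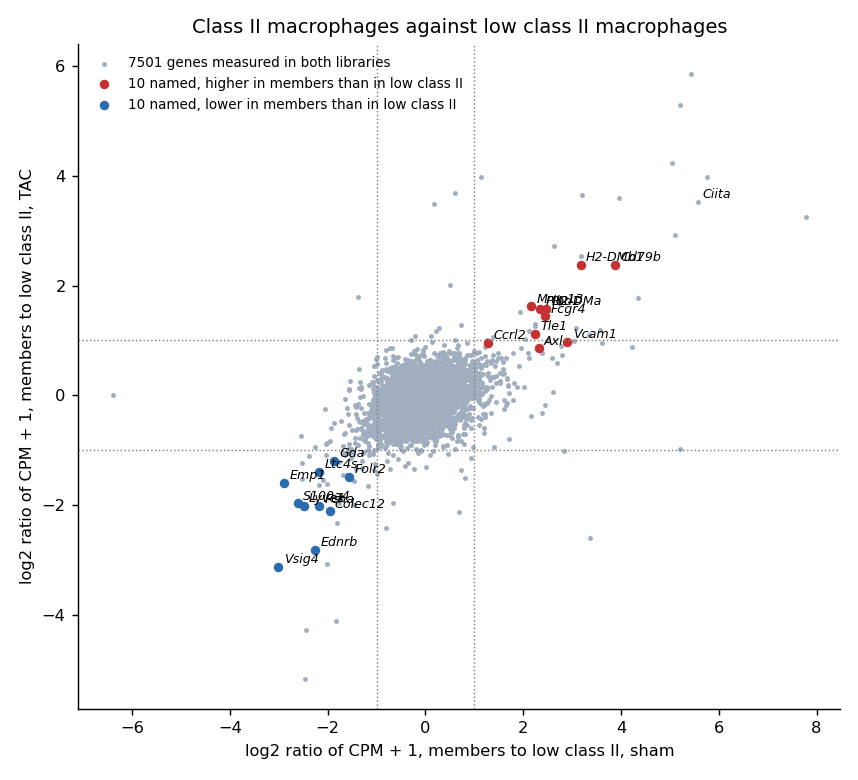
Log2 ratio of CPM + 1, members to low class II macrophages, in sham (x axis) and TAC (y axis) for 7501 genes measured in both libraries without the 7 genes of the rule. Dotted lines mark 2-fold, and coloured points are the 10 genes named in each direction. H2-DMb1 (3.18 in sham, 2.38 in TAC) lies to the upper right with Ciita beyond it (5.57 and 3.53), and Vsig4 (-3.01 and -3.13) to the lower left.

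Among members the class II share varied from 0.201% to 12.2% in sham and from 0.203% to 15.3% in TAC, and other genes varied with it. Members were split at 1%, 3% and 5% into bins of 65, 104, 99 and 176 sham and 48, 78, 46 and 58 TAC cells. From the lowest to the highest bin Ciita stood at 38.6, 75.3, 158 and 191 CPM in sham and at 16.1, 44.8, 64.9 and 65.9 CPM in TAC. H2-DMb1 stood at 129, 205, 491 and 754 CPM and at 90.7, 269, 457 and 708 CPM. H2-DMb1 thus had overlapping intervals in the 2 libraries in each bin. Ciita was lower in TAC in each bin, with intervals that overlapped in the first 2 bins. H2-DMa, the partner of H2-DMb1, stood at 222, 450, 775 and 1132 CPM in sham and 202, 336, 514 and 686 CPM in TAC. It was lower in TAC in each bin, with intervals that overlapped in the lowest bin only. These bins come from the measured class II UMIs, and genes outside the 4 summed ones are described here without a test.

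Resident genes ran the other way along the same bins. Lyve1 stood at 557, 397, 212 and 38.4 CPM in sham and at 239.9, 182, 25.4 and 7.32 CPM in TAC, and Folr2 at 734, 780.0, 479 and 195 CPM and 302, 286, 141 and 56.1 CPM. Members with a low class II share were therefore nearer to low class II macrophages in these genes than members with a high share. F13a1, coagulation factor XIII A, also stood lower in the highest than in the lowest bin, at 1509 and 463 CPM in sham and 989.7 and 593 CPM in TAC. Fcgr4 ran upward, from 6.43 to 144 CPM in sham and from 115 to 246 CPM in TAC, as did Plbd1, from 106 to 363 and from 84.7 to 276 CPM. Il1b stood at 129, 153, 677 and 1239 CPM in sham and 329, 326, 708 and 1005 CPM in TAC. Cx3cr1 stood between 119 and 202 CPM in every sham bin and between 8.06 and 19.4 CPM in every TAC bin, so its library difference held at each class II share. Mgl2 stood at 1026 CPM in the lowest and 1286 CPM in the highest sham bin but at 536 and 222 CPM in those of TAC. C1qa, a complement gene of the gate, was nearly level, from 6589 to 7003 CPM over the sham bins. S100a8 stood at 403 CPM in the lowest and 2052 CPM in the highest TAC bin.

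**Figure D5:**
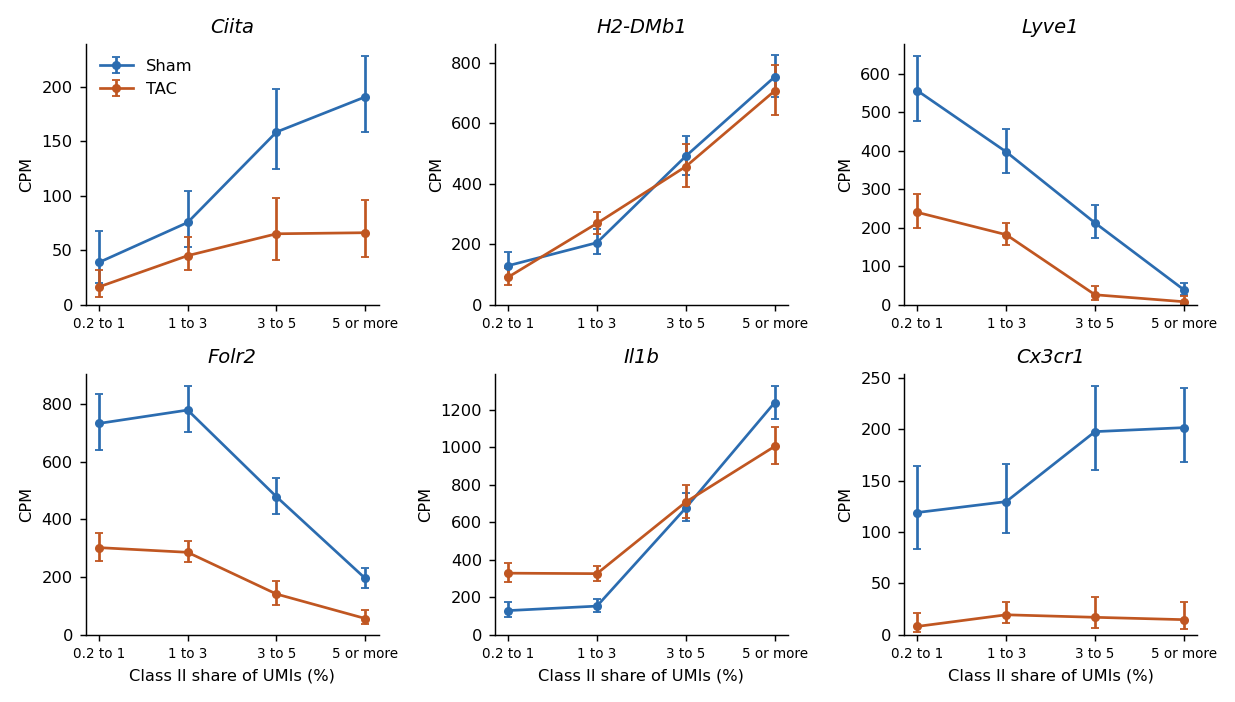
CPM (y axes, from 0) of 6 genes in members split by the class II share of their UMIs (x axes, percent), sham in blue and TAC in orange, with 95% counting intervals. Ciita and H2-DMb1 run upward and Lyve1 and Folr2 downward in both libraries, and TAC lies far below sham for Cx3cr1 in all 4 bins.

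Shares of members with a UMI, at the same 2700 UMIs per cell in both libraries, are given with the fibroblast gate as the background. Lyve1 had a UMI in 24.7% of the sham members and 14.02% of the TAC members, against 79.7% and 43.3% of low class II macrophages and 1.24% and 1.33% of the fibroblast gate. Folr2 was seen in 44.8% and 27.6% of members, against 89.9% and 61.7% of low class II macrophages and 1.22% and 0.486% of the fibroblast gate. Lyve1 and Cx3cr1 were seen together in 4.95% of sham and 0.467% of TAC members. For Fcgr4 the shares were 17.6% in sham and 38.3% in TAC members, higher in TAC, with 0.151% and 0.324% in the fibroblast gate. Low class II macrophages were also higher in TAC for Fcgr4, at 4.35% and 12.9%. For Il1b the shares were 30.5% in sham and 25.2% in TAC members, against 4.35% and 20.4% of low class II macrophages and 0.671% and 1.13% of the fibroblast gate. Cxcl2, a neutrophil attractant, was seen in 44.8% and 41.6% of members, shares whose intervals overlapped although its summed level was 3718 CPM in sham and 1653 CPM in TAC. In the fibroblast gate it was seen in 2.73% and 1.42% of cells, and in low class II macrophages in 38.6% and 38.3%.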

How the data were processed

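Single-cell RNA was measured in 1 sham and 1 TAC library. Values are the deposited raw UMI counts, produced by Cell Ranger 3.1.0 per the file headers; the build was mm10 and Seurat was among the tools per the submitters' processing notes. Of 31053 gene IDs, 30934 matched GENCODE vM21, which gave coordinates. Barcodes were kept at 500 genes, 1000 UMIs and at most 15% mitochondrial UMIs, which dropped 462 in sham and 901 in TAC. Doublets were kept, and Scrublet in Scanpy 1.11.5 was an alternative. UMIs were summed per group and library, with exact Poisson, conditional ratio and Clopper-Pearson intervals (SciPy 1.17.1), which cover counting error only. A gene was measured at a mean of at least 10 CPM over the 2 groups. Named genes were the 12 largest TAC to sham ratios each way and the 10 largest member to low class II ratios each way by the smaller library, with at least 50 CPM and 10% of cells in 1 group. The rule's own genes, mitochondrial, ribosomal, haemoglobin and unnamed genes, and genes under 20% of their level outside the macrophage gate were left out of the named genes. Counts of the gene lists kept genes under that last limit. It was passed by 19 of 22 lipid and scar, 14 of 17 chemokine, 13 of 16 monocyte-derived and 16 of 19 glucocorticoid genes. The members and the 32 gene lists were chosen with earlier results of these data known. Not every gene of the B cell set is reported here. Ratios and intervals were tested on simulated Poisson counts only. Those counts hold no spread between cells or libraries, so the intervals were not checked against such spread. The alternatives were 13 planned and 2 added after seeing the data.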

Additional observations from a re-analysis of the deposited data

How the results depend on the processing

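No paired analysis was possible because each group is 1 library and the labels give no replicate numbers. The member shares depended on depth and on the 3 excluded genes. Gated at equal depth they were 40.9% and 33.5%, a ratio of 0.818, and with no requirement on Ccr2, Timd4 and Spp1 81.0% and 76.7%, a ratio of 0.947. There, 25 genes were at least 2-fold lower in members than in low class II macrophages in both libraries, and the S100a4 ratio in TAC turned to 0.095. Leaving out cells with 2 UMIs of the B cell or dendritic lists left 206 sham and 80 TAC members, shares of 46.8% and 29.0%, 575 genes higher and 385 lower in TAC members, 81 lower than in low class II macrophages, and an Mmp13 ratio in TAC of -0.25. With a pseudocount of 10 CPM, 215 genes were higher and 50 lower in TAC members and 26 lower than in low class II macrophages. With no minimum level the counts were 1286 and 651, and 116 higher and 197 lower than in low class II macrophages. With low class II cells that also lacked the 3 genes, 26 were lower in members. The causes were not tested beyond what the fewer cells or genes of an alternative show. Mixed cells, left out as an alternative added after seeing the data, turned Hdc to -0.72 and Slpi to -0.80. Class II thresholds of 0.1% and 0.5%, Scrublet doublets removed, 4 of 6 gate genes and a stricter cell filter moved no TAC to sham ratio of the 24 named genes by over 1.5 times; leaving out B or dendritic UMIs moved 10, no requirement on the 3 genes 7, mixed cells 5, the pseudocount 5 and equal depth 2. The 40 member to low class II ratios moved more: 19 by over 1.5 times with no requirement on the 3 genes, 16 with low class II cells that also lacked them, 12 without B or dendritic UMIs, 5 without mixed cells, 4 at equal depth, 2 with the pseudocount, and 1 each with the 0.5% threshold and with equal weight per cell. Depth limits genes under about 10 CPM, where a sham member sum of 1893750 UMIs holds few counts.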
